A study of Rattus norvegicus with 18 samples.

Results

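The miR-10, miR-99 and miR-125 group is 6 mature microRNAs (miRNAs) measured in rat liver: rno-miR-10a-5p, rno-miR-10b-5p, rno-miR-99a-5p, rno-miR-99b-5p, rno-miR-125a-5p and rno-miR-125b-5p, written here without the species prefix. They were chosen by name, as 6 of the 401 rows of the deposited count table, and the choice was made with differences between the groups of these same libraries in view. Their differences between groups are therefore a description and carry no test. All 6 had enough counts to enter the model, in which 112 rows were fitted.

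Small RNA was sequenced from 18 liver libraries, 6 in each of 3 groups, all from rats 8 weeks old. The colesevelam group was obese and was given colesevelam, a bile acid sequestrant that stays in the intestine. The vehicle group was obese and was given vehicle. The lean group was lean, and its labels name no agent. All 18 libraries, lean ones included, carry the strain label ZDF-Leprfa/Crl, the Zucker diabetic fatty rat, in which loss of the leptin receptor gives obesity and diabetes, so the lean rats are known by name and phenotype label alone. The labels do not give their genotype at that gene. Nor do they tie each library to its own animal, and any p-value here measures only how libraries scatter, part of which may be technical. The libraries held 32936 to 122881 miRNA counts in the colesevelam group, 37910 to 147313 in the vehicle group and 110352 to 881452 in the lean group.

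A miRNA guides a silencing complex to messenger RNAs, mainly by its seed, the bases at positions 2 to 8 from its 5′ end. The miR-10, miR-99 and miR-125 families are related by sequence and are old in animals. The genes of miR-10 lie within the Hox clusters, whose transcription factors set position along the body axis. The genes of miR-99 and miR-100 lie together with let-7 and miR-125 genes. In human cells miR-99 family members are known to repress MTOR, the kinase that couples growth to nutrients. miR-125 is the vertebrate counterpart of lin-4, which times larval development in Caenorhabditis elegans, and let-7 acts later in that same pathway. The level of each in bulk liver depends both on the cells present and on the RNA per cell, and fewer cells of a type and less RNA per cell cannot be told apart.

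The sequences show which members can share targets and which can be confused in counting. They are printed 5′ to 3′ as the deposited table gives them, with the seed in capitals.
miR-10a-5p: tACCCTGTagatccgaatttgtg
miR-10b-5p: cCCTGTAGaaccgaatttgtgt
miR-99a-5p: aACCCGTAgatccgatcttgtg
miR-99b-5p: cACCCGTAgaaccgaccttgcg
miR-100-5p: aACCCGTAgatccgaacttgtg
miR-125a-5p: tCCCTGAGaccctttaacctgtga
miR-125b-5p: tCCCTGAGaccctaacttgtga

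Both miR-99 members have the seed ACCCGTA, which miR-100-5p also carries. Both miR-125 members have the seed CCCTGAG, which the table also lists for miR-351-5p. Counting positions from 1 at the 5′ end of miR-99a-5p, miR-99b-5p differs from it by A1C, T11A, T16C and T21C. miR-100-5p differs from miR-99a-5p by T16A alone, so reads with 1 error at that base could move between these rows. How many mismatches were allowed in counting is not given in the sources used here. miR-125a-5p and miR-125b-5p share their first 13 bases and are 3 edits apart.

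The miR-10 members differ in where they are annotated to begin. miR-10b-5p starts 2 bases later than miR-10a-5p, and over the 21 bases that align the change is T12A, counted from the 5′ end of miR-10a-5p. Their annotated seeds therefore differ. Both hairpins are shown from RefSeq (build GRCr8), because the bases just before the mature miRNA, here in capitals, are the point of the comparison.
Mir10a hairpin: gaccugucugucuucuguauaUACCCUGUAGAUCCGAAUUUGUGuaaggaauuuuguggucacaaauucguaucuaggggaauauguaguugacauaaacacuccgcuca
Mir10b hairpin: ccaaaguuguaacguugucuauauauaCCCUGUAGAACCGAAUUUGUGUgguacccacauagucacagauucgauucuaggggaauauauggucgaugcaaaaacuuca

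The bases UA stand directly before miR-10b-5p in its hairpin. A window of 23 bases that starts there, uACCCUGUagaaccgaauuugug, has the seed of miR-10a-5p (capitals) and 1 mismatch to it, at position 12. Whether reads with that start were counted as miR-10b-5p is not given in the sources used here. Of the 6 members, 5 have a mature entry in the RefSeq table, identical to the deposited sequence.

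In GRCr8 the Mir10a hairpin is at chr10:81779709-81779818 on the plus strand, outside any other annotated gene, with Hoxb4 starting 1272 bases after it. Mir10b is at chr3:80035859-80035967 on the plus strand, within the span of Hoxd4. The other 4 members come from clusters with let-7. Mir99b, Mirlet7e and Mir125a lie within 696 bases on chromosome 1, from 67350064 to 67350759, inside the protein-coding gene Spaca6. Mir99a, Mirlet7c1 and Mir125b2 lie within 45.3 kb on chromosome 11, from 29687392 to 29732659, inside the long non-coding RNA gene LOC103693508. Mir100, Mirlet7a-2 and Mir125b1 lie within 51.8 kb on chromosome 8. miR-125b-5p can come from either of the last pair of clusters, and its row in the table lists 2 locations.

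Levels are given as CPM, counts scaled to one common total per library with TMM factors, and compare miRNAs with one another only roughly, since the ligation of each sequence into a library differs. miR-10a-5p was by far the most abundant of the 6, at rank 8 among the 112 miRNAs by mean CPM. miR-125b-5p ranked 37, miR-125a-5p 42, miR-99b-5p 53, miR-99a-5p 63 and miR-10b-5p 66. In counts over all libraries this was 111655 for miR-10a-5p, 4284 for miR-125b-5p, 3526 for miR-125a-5p, 1923 for miR-99b-5p, 1587 for miR-99a-5p and 1484 for miR-10b-5p. The order miR-10a-5p, miR-125b-5p, miR-125a-5p, miR-99b-5p held by mean CPM in each group. miR-10a-5p did not overlap the next member in any group. Neighbours below it overlapped in every group, except that all lean libraries had more miR-125a-5p than any had miR-99b-5p. The lowest pair, miR-99a-5p and miR-10b-5p, overlapped throughout, and miR-10b-5p had the higher mean of the 2 only in vehicle libraries.

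**Figure D1:**
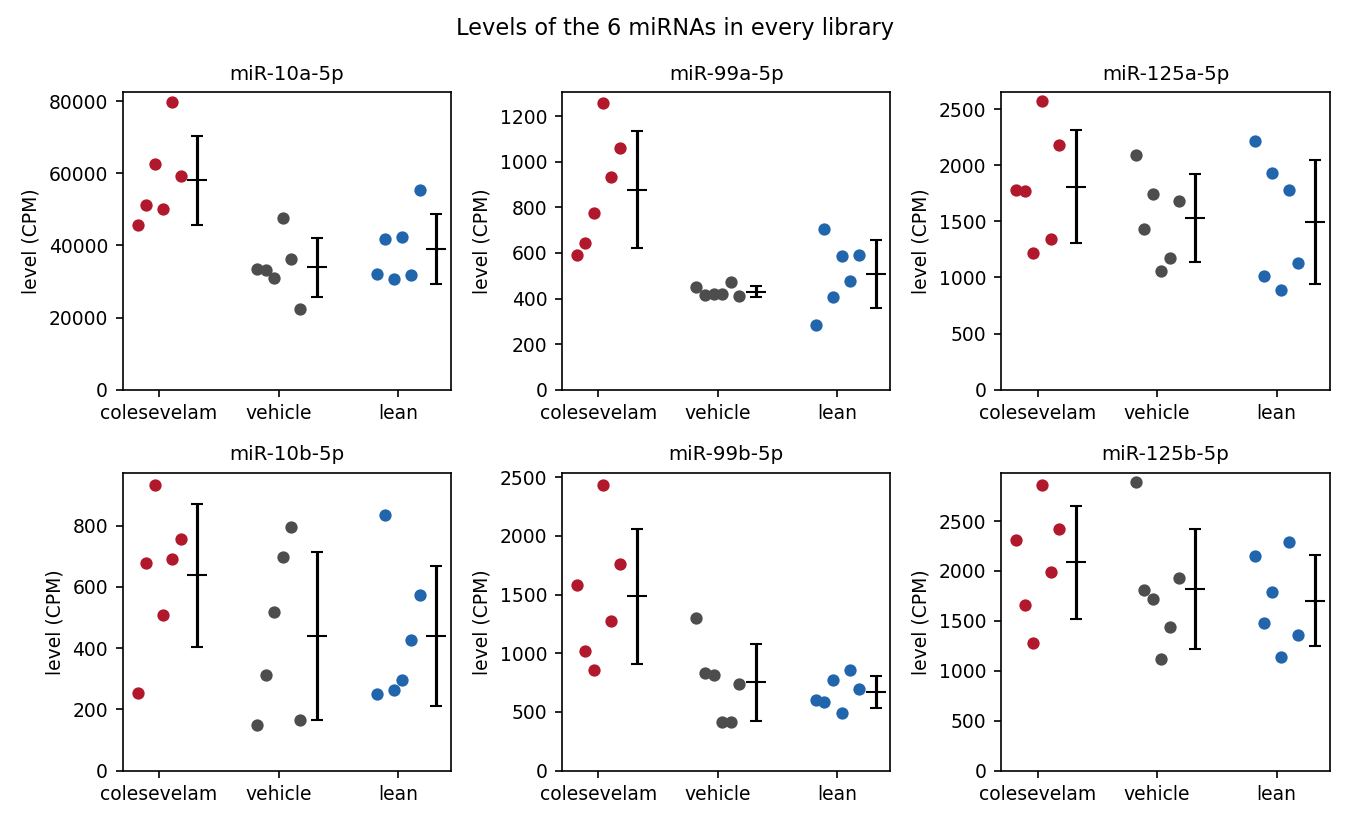
CPM (linear axes from 0) of each miRNA in the colesevelam, vehicle and lean libraries, each point 1 library, with the mean and SD of 6 libraries beside the points. In the miR-99a-5p panel the colesevelam points all lie above the vehicle points, which are packed between 412 and 470 CPM. In the miR-125 panels the 3 groups cover much the same range.

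The miR-99 pair differed most between colesevelam and vehicle libraries. miR-99a-5p had 593 CPM in the lowest, 855 at the median and 1258 in the highest colesevelam library, against 412, 418 and 470 CPM in vehicle libraries and 286, 531 and 704 CPM in lean libraries. The lowest colesevelam value exceeded the highest vehicle value, and the lean libraries overlapped both groups. Means were 877 ± 256 CPM in colesevelam, 431 ± 23.6 in vehicle and 508 ± 150 in lean libraries (SD, n = 6 each). The log2 fold change (± SE) of miR-99a-5p was 1.02 ± 0.25 for colesevelam over vehicle, −0.24 ± 0.25 for vehicle over lean and 0.78 ± 0.24 for colesevelam over lean. Vehicle libraries held 17 to 72 counts of it and colesevelam libraries 21 to 93.

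miR-99b-5p, from the other cluster, had 855, 1427 and 2435 CPM in the lowest, median and highest colesevelam libraries, against 412, 777 and 1297 CPM in vehicle libraries and 490, 651 and 857 CPM in lean libraries. The colesevelam and vehicle ranges overlapped, while against lean libraries the overlap was slight, the lowest colesevelam library falling just under the highest lean one. Means were 1487 ± 574 CPM in colesevelam, 752 ± 327 in vehicle and 668 ± 134 in lean libraries (SD, n = 6 each). The log2 fold change of miR-99b-5p was 0.99 ± 0.30 for colesevelam over vehicle, 0.15 ± 0.29 for vehicle over lean and 1.15 ± 0.29 for colesevelam over lean. The ratio of miR-99a-5p to miR-99b-5p within a library, which needs no scaling, had a mean log2 of −0.73 ± 0.44 in colesevelam, −0.69 ± 0.66 in vehicle and −0.43 ± 0.61 in lean libraries (SD, n = 6 each). These ratios overlapped between all groups.

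miR-10a-5p had 45578, 55173 and 79697 CPM in the lowest, median and highest colesevelam libraries, against 22286, 33276 and 47544 CPM in vehicle libraries and 30695, 36923 and 55520 CPM in lean libraries. A single vehicle library, number 4, reached above the lowest colesevelam library. Means were 58038 ± 12309 CPM in colesevelam, 33944 ± 8189 in vehicle and 39019 ± 9596 in lean libraries (SD, n = 6 each). The log2 fold change of miR-10a-5p was 0.77 ± 0.20 for colesevelam over vehicle, −0.20 ± 0.20 for vehicle over lean and 0.57 ± 0.20 for colesevelam over lean.

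miR-10b-5p was far rarer and more scattered, with 254, 685 and 932 CPM in the lowest, median and highest colesevelam libraries, against 150, 414 and 797 CPM in vehicle libraries and 251, 361 and 835 CPM in lean libraries. The 3 groups overlapped over most of their ranges. Its log2 fold change was 0.53 ± 0.41 for colesevelam over vehicle, 0.01 ± 0.40 for vehicle over lean and 0.54 ± 0.40 for colesevelam over lean. Within groups its SD of log2 CPM was 0.79, the highest of the 6, against 0.33 for miR-10a-5p and a median of 0.50 over the 112 miRNAs. Libraries held between 6 and 635 counts of miR-10b-5p. The geometric mean of miR-10a-5p over miR-10b-5p counts was 96.4 in colesevelam, 91.8 in vehicle and 95.7 in lean libraries. The 2 members of the Hox clusters thus kept nearly the same mean ratio in each group, with an SD of log2 between 0.52 and 0.85.

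The miR-125 pair differed least. miR-125a-5p had 1221, 1773 and 2569 CPM in the lowest, median and highest colesevelam libraries, against 1056, 1559 and 2095 CPM in vehicle libraries and 887, 1452 and 2217 CPM in lean libraries. miR-125b-5p had 1277, 2150 and 2863 CPM in colesevelam libraries, against 1115, 1764 and 2893 CPM in vehicle libraries and 1135, 1635 and 2291 CPM in lean libraries. The ranges of the groups nearly coincided for both. The log2 fold change of miR-125a-5p was 0.24 ± 0.25 for colesevelam over vehicle, 0.04 ± 0.25 for vehicle over lean and 0.28 ± 0.25 for colesevelam over lean. For miR-125b-5p it was 0.20 ± 0.24, 0.09 ± 0.24 and 0.29 ± 0.24 in the same comparisons. The pair held a steady ratio, with miR-125a-5p at 0.868 of miR-125b-5p in colesevelam, 0.855 in vehicle and 0.852 in lean libraries (geometric means of count ratios, SD of log2 between 0.18 and 0.26).

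Set against all miRNAs fitted, 3 of the 6 (miR-10a-5p, miR-99a-5p and miR-99b-5p) were past the threshold of edgeR's quasi-likelihood test in colesevelam against vehicle libraries, all higher, where 10.7% of the 112 were past it and 7.14% were past it and higher. In vehicle against lean libraries 0 of the 6 were past it, where 6.25% of the 112 were and 3.57% were higher in vehicle libraries. In colesevelam against lean libraries the same 3 were past it, all higher, where 21.4% were past it and 11.6% were past it and higher. The 3 comparisons share groups, and nothing is read from these counts because the members were chosen with them in view. The median log2 fold change of the 6 was 0.65 for colesevelam over vehicle, 0.02 for vehicle over lean and 0.56 for colesevelam over lean, against −0.01, 0.01 and −0.08 over the 112. The log2 fold change was above 0 for 6 of the 6 in colesevelam over vehicle, where 48.2% of the 112 were, for 4 of the 6 in vehicle over lean, where 50.9% were, and for 6 of the 6 in colesevelam over lean libraries, where 45.5% were. With the size factors of the authors' deposited table those counts were 3, 0 and 0 of the 6. The median over the 112 was then −0.36, −2.38 and −2.76, so most miRNAs were below 0 in each comparison. Among rows with a fold change from the authors, 102 of 127, 181 of 183 and 182 of 182 were below 0. Groups that did not overlap were found for 1 of the 6 (miR-99a-5p) in colesevelam against vehicle libraries, where the share over the 112 was 5.36% in either direction and 3.57% with colesevelam higher, and for 0 of the 6 in the other 2 comparisons, where it was 2.68% in vehicle against lean and 8.04% in colesevelam against lean libraries.

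Some of these calls rested on single libraries. In colesevelam against vehicle libraries, miR-10a-5p fell under the threshold without vehicle library 6, and miR-99b-5p without vehicle library 5. miR-99a-5p stayed past it in all 18 fits that left out 1 library, in which 7 to 14 of all miRNAs were past it. The members were chosen with these differences in view, so a call that stayed is no added evidence. In colesevelam against lean libraries, miR-99b-5p was past the threshold in 18 of 18 fits that left out 1 library and miR-99a-5p in 15. The exceptions for miR-99a-5p were those without colesevelam library 4, lean library 1 or lean library 5. Over all miRNAs, from 17 of 112 (without lean library 2) to 32 of 112 (without lean library 6) were past the threshold in these fits. miR-10a-5p was past it in 4 of these fits, those without colesevelam library 1, vehicle library 2, vehicle library 4 or lean library 6. Of the 12 miRNAs past the threshold in colesevelam against vehicle libraries, 8 were higher and 4 lower. That split was 7 and 7 with library totals alone, 7 and 6 with TMM factors computed without the 6 miRNAs, and 6 and 0 with upper-quartile factors. In colesevelam against lean libraries it was 13 and 11, against 11 and 18 with library totals alone and 9 and 18 with TMM factors computed without the 6.

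**Figure D2:**
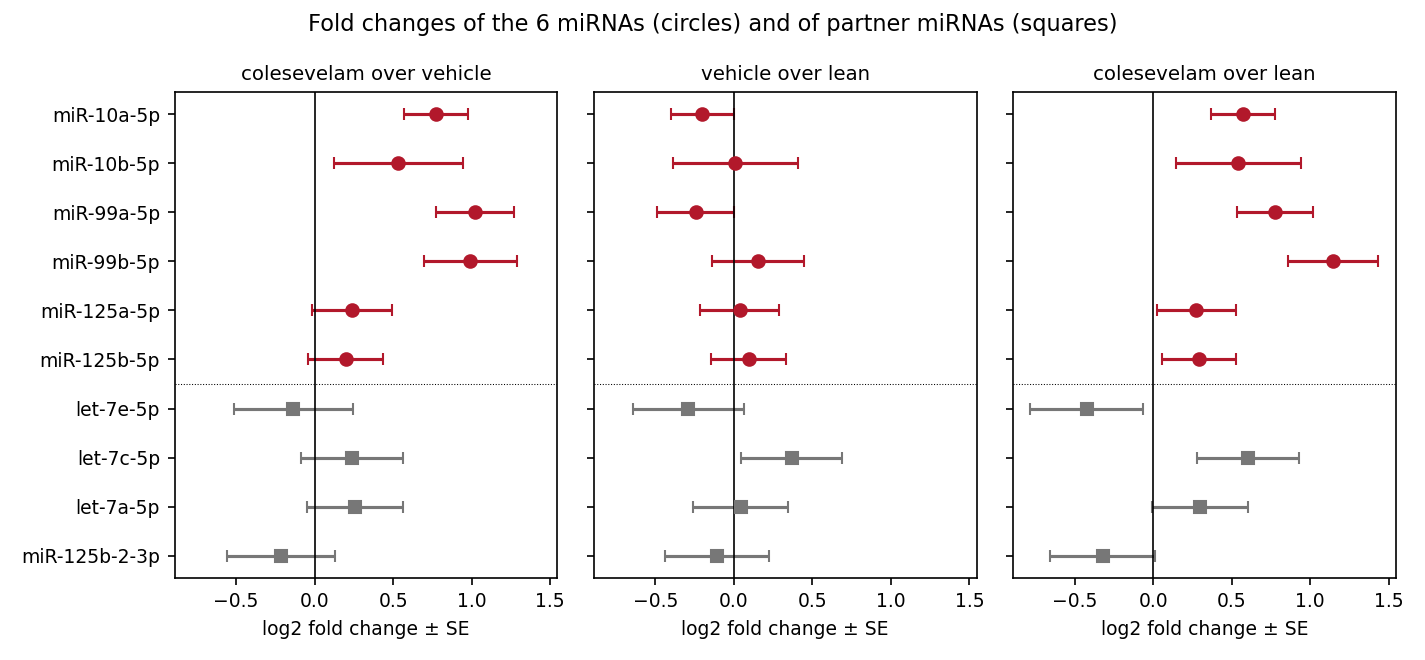
Log2 fold change ± SE in colesevelam over vehicle, vehicle over lean and colesevelam over lean libraries, for the 6 miRNAs (circles) and 4 partner miRNAs of their clusters (squares). In the first panel the circles of miR-10a-5p, miR-99a-5p and miR-99b-5p lie farthest right. In the last panel those of the miR-99 pair do, and the let-7c-5p square at 0.61 lies right of the miR-10a-5p circle at 0.57. Circles of the miR-125 pair lie between 0.20 and 0.29 in both panels, and squares fall on both sides of 0.

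As a share of all miRNA counts of a library the 6 together held 6.16 ± 0.65% in colesevelam, 3.99 ± 0.47% in vehicle and 4.34 ± 0.79% in lean libraries (SD, n = 6 each). This sum is mostly miR-10a-5p, which made up 89.1 ± 3.4% of it in colesevelam, 86.7 ± 4.1% in vehicle and 88.5 ± 3.8% in lean libraries. The other 5 together held 0.661 ± 0.164%, 0.519 ± 0.126% and 0.485 ± 0.122% in the same order of groups.

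The partners are rows outside the 6: the other arms of their hairpins, the miR-100 arms, and the let-7 miRNAs of their clusters. Their list too was drawn up with earlier results of these data known. Of 15 listed, 13 stood in the table and 4 had enough counts to test. None of these 4 changed in any comparison (quasi-likelihood test of edgeR, Benjamini-Hochberg adjustment over 112 miRNAs). In edgeR an unadjusted p under 0.05 was reached by 0 of them. DESeq2 and limma-voom called 0 after adjustment, and in limma-voom 1 had an unadjusted p under 0.05 in colesevelam against lean libraries. For colesevelam over vehicle the log2 fold change was −0.14 ± 0.38 for let-7e-5p (edgeR adjusted p = 0.920), 0.24 ± 0.32 for let-7c-5p (0.772), 0.26 ± 0.31 for let-7a-5p (0.726) and −0.21 ± 0.34 for miR-125b-2-3p (0.791). For vehicle over lean the values for these 4 lay between −0.29 and 0.37. For colesevelam over lean they lay between −0.42 and 0.61, the highest being let-7c-5p at 0.61 ± 0.32 (edgeR adjusted p = 0.174). The median over the 4 was 0.05, −0.03 and −0.01 in the 3 comparisons. A p above the threshold does not show that these levels were equal, and counts of the let-7 rows are shared out in fractions, since they hold values that are not whole.

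Within a cluster, the mean ratio of its miRNAs was not the same in each group. Ratios of counts within a library need no scaling, and those given here were chosen after the values were seen. In the chromosome 1 cluster miR-99b-5p over miR-125a-5p had a geometric mean of 0.799 in colesevelam, 0.466 in vehicle and 0.467 in lean libraries. Against let-7e-5p, which sits between them, miR-99b-5p was at 5.26 in colesevelam, 2.33 in vehicle and 2.05 in lean libraries. In the chromosome 11 cluster miR-99a-5p over miR-125b-2-3p was 1.48 in colesevelam, 0.646 in vehicle and 0.699 in lean libraries. Over let-7c-5p it was 0.0627, 0.0397 and 0.0603 in the same order of groups. The colesevelam and lean means of this ratio were close, but lean libraries ran from 0.0278 to 0.175 (SD of log2 1.17). All of these ratios overlapped between the groups.

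**Figure D3:**
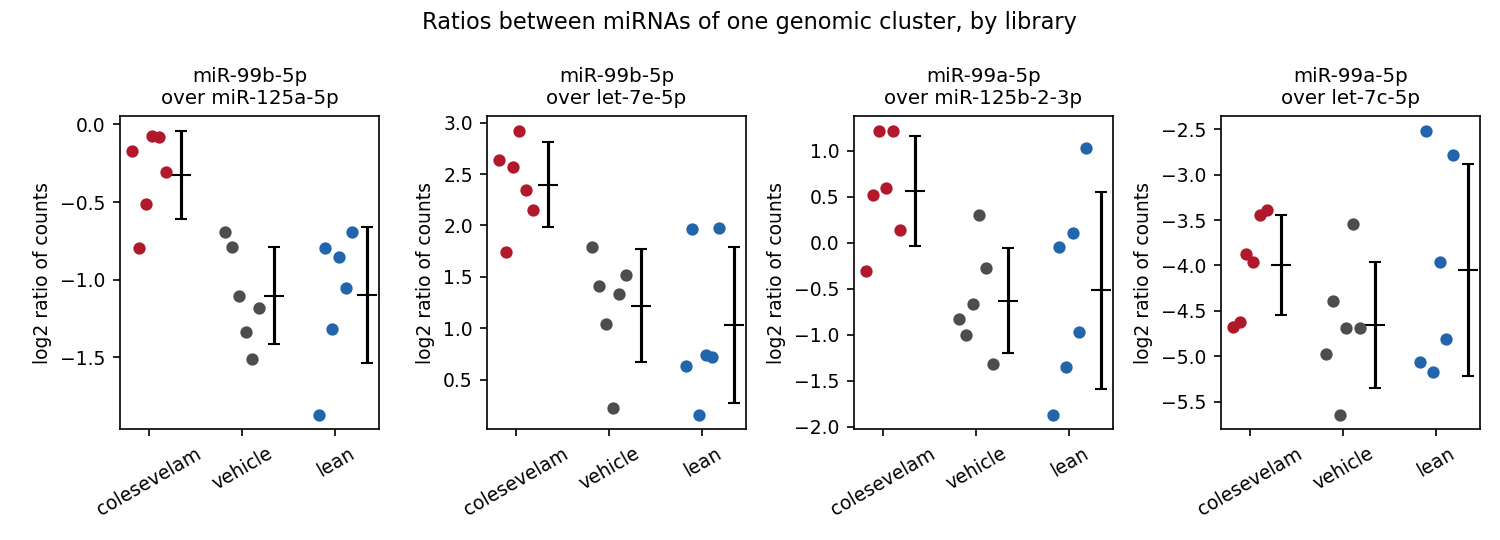
Log2 ratio of counts of 2 miRNAs from one genomic cluster, by library in the colesevelam, vehicle and lean groups, with mean and SD (n = 6 each). The mean of miR-99b-5p over miR-125a-5p is −0.32 in colesevelam against −1.10 in vehicle and −1.10 in lean libraries, and points of the groups overlap in every panel.

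The arms of the hairpins were read out very unevenly. miR-10a-3p had 19 counts over all libraries, miR-99b-3p 16 and miR-125a-3p 7, too few to compare. miR-125b-2-3p had 1824 counts and miR-125b-1-3p 12, so nearly all counts of a 3p arm of miR-125b carried the chromosome 11 hairpin's name. The ratio of miR-125b-5p to miR-125b-2-3p had a geometric mean of 3.53 in colesevelam, 2.62 in vehicle and 2.37 in lean libraries, with overlap. miR-99a-3p, the other arm of miR-99a-5p, had 16 counts summed over colesevelam, 40 over vehicle and 130 over lean libraries. Its share of the counts of both miR-99a arms was 4.72% (exact binomial 95% interval 2.72 to 7.55%) in colesevelam, 17.9% (13.1 to 23.6%) in vehicle and 10.7% (9.05 to 12.6%) in lean libraries. By library it ran from 2.78 to 8.70% in colesevelam, from 5.56 to 25.5% in vehicle and from 8.58 to 19.4% in lean libraries. Those intervals cover counting error only, libraries of one group were pooled, and this share was picked out after the values were seen, so it stands as a description.

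miR-100-5p, with the seed of the miR-99 pair, had 30 counts over the colesevelam, 13 over the vehicle and 67 over the lean libraries, under the filter on low counts. Its mean level was 76.1 ± 40.0 CPM in colesevelam, 26.6 ± 18.5 in vehicle and 28.0 ± 14.3 in lean libraries (SD, n = 6 each), and the groups overlapped. The seed of the miR-99 pair and miR-100-5p was thus carried almost wholly by the miR-99 pair. miR-351-5p, which has the seed of the miR-125 pair, had 226 counts in colesevelam, 247 in vehicle and 986 in lean libraries. Its mean level was 691 CPM in colesevelam, 626 in vehicle and 604 in lean libraries. Its log2 fold change was 0.13 ± 0.40 for colesevelam over vehicle and 0.05 ± 0.39 for vehicle over lean.

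Within groups, the 6 did not vary as one. After removing group means, the correlation of log2 CPM over 18 libraries was computed for all 15 pairs, with two-sided permutations of libraries within groups and Benjamini-Hochberg adjustment over the 15. miR-125a-5p and miR-125b-5p varied together (Pearson r = 0.87, permutation p = 3e-05, adjusted p = 0.000225; Spearman rho = 0.89, permutation p = 2e-05, adjusted p = 0.000225). miR-99b-5p went with both, at r = 0.88 with miR-125b-5p (rho 0.87, adjusted permutation p = 0.000225 for each) and r = 0.74 with miR-125a-5p (rho 0.76, adjusted permutation p = 0.000850 for r and 0.00160 for rho). miR-10a-5p and miR-10b-5p also varied together (r = 0.63, adjusted permutation p = 0.0262; rho 0.66, adjusted permutation p = 0.0144). Libraries high in one miR-10 member were low in miR-125a-5p, at r = −0.68 for miR-10a-5p (rho −0.71, adjusted permutation p = 0.0156 for r and 0.0144 for rho) and r = −0.56 for miR-10b-5p (rho −0.59, adjusted permutation p = 0.0401 for r and 0.0265 for rho). miR-10b-5p and miR-125b-5p were at r = −0.61 (rho −0.65, adjusted permutation p = 0.0333 for r and 0.0144 for rho). Of the 15 pairs, 7 passed on r, 4 with a positive and 3 with a negative sign, and 9 passed on rho, 4 positive and 5 negative. The 2 that passed on rho alone were miR-10a-5p with miR-125b-5p (rho −0.64, adjusted permutation p = 0.0182; r = −0.55, adjusted permutation p = 0.0526) and miR-10b-5p with miR-99b-5p (rho −0.57, adjusted permutation p = 0.0469; r = −0.57, adjusted permutation p = 0.0551). Without the 2 libraries farthest from the median of the first member the 7 that passed on r kept their sign, the miR-125 pair at 0.85, miR-99b-5p at 0.87 with miR-125b-5p and 0.70 with miR-125a-5p, the miR-10 pair at 0.56, and the negative ones at −0.72, −0.56 and −0.50. The points share a library total. Also, 5 pairs of libraries share a number in their labels whose meaning is not stated, so the 18 may not be independent. How often pairs of miRNAs outside the 6 would pass was not tested. Passing is therefore not shown to be particular to pairs of the 6.

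Base composition moved with some of these correlations. The members differ in GC content, from 43.5% in miR-10a-5p and 45.5% in miR-10b-5p to 63.6% in miR-99b-5p, with 50% in the rest. Libraries differed in the slope of level on GC content. Given relative to the mean slope over all libraries, it ran from −0.0352 to 0.0424 log2 units per percent, in ranges that overlapped between the groups. With that slope removed from each library, the miR-125 pair stood at r = 0.81 and the miR-10 pair at 0.54. The negative pairs stood at −0.49 for miR-10a-5p and miR-125a-5p, −0.49 for miR-10b-5p and miR-125a-5p, and −0.55 for miR-10b-5p and miR-125b-5p. miR-99b-5p dropped to −0.07 with miR-125a-5p and 0.24 with miR-125b-5p, and stood at 0.62 with miR-99a-5p and 0.58 with miR-10a-5p. With the same slope in the model as an offset, miR-10a-5p, miR-99a-5p and miR-99b-5p were past the threshold in colesevelam against vehicle libraries. There 15 of the 112 were past it, 8 higher and 7 lower, against 12 in the main fit. The part of base composition in the differences between groups was not tested.

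**Figure D4:**
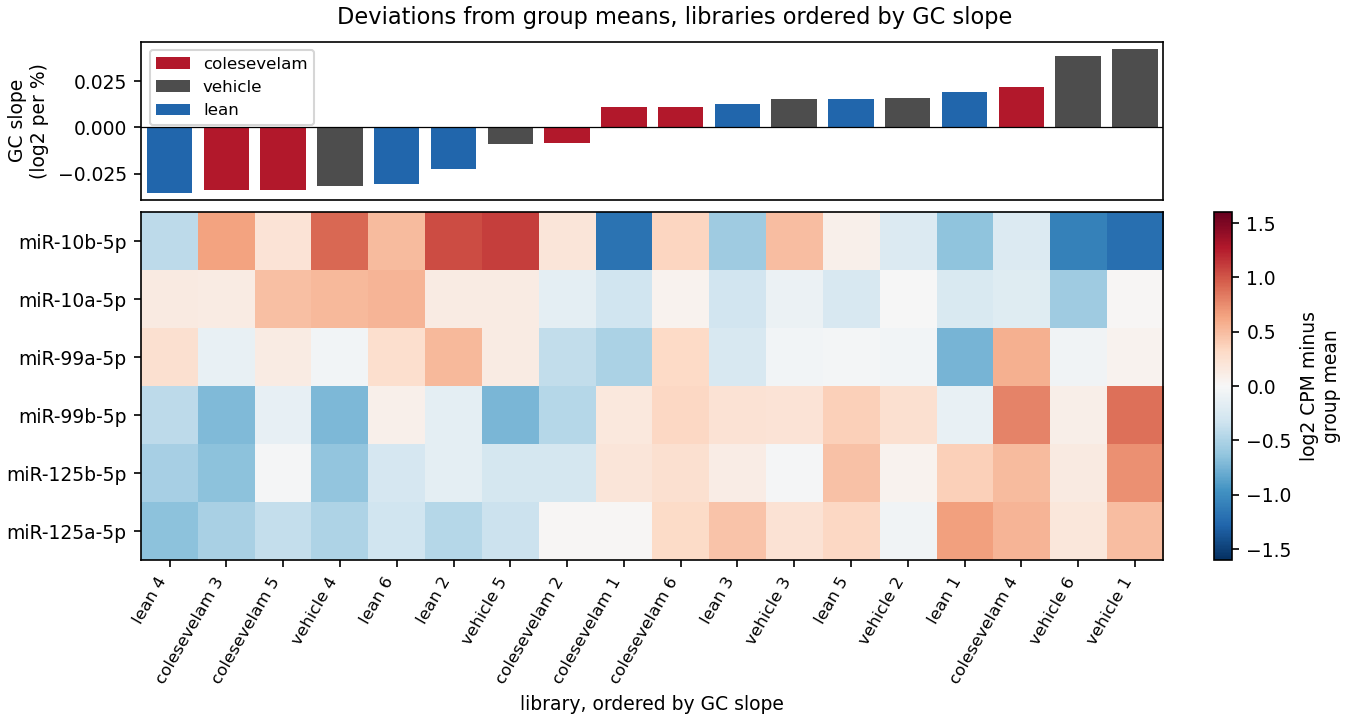
Upper panel, slope of log2 CPM on GC content for each library, minus the mean slope over all libraries (log2 units per percent GC). Lower panel, log2 CPM minus the group mean for the 6 miRNAs, with the 18 libraries in order of slope. Bars from −0.0352 to 0.0424 mix the 3 groups, and the miR-125 rows and miR-99b-5p run from blue (low) on the left to red (high) on the right, opposite to the miR-10 rows.

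The miRNAs most like each member were ranked by the same within-group correlation over 18 libraries, as a description in which points share depth and base composition. They were miR-126a-5p for miR-10a-5p (r = 0.86), miR-203b-3p for miR-10b-5p (0.71), miR-15b-5p for miR-99a-5p (0.69), miR-378a-3p for miR-99b-5p (0.89), miR-181a-5p for miR-125a-5p (0.92) and miR-328a-3p for miR-125b-5p (0.92). For the mean of the 6, miR-191a-5p came first at r = 0.64, below the first r of each single member. No one miRNA headed more than 1 of these lists, but the first 3 of each list had miRNAs in common. Among others, miR-192-5p was there for miR-10a-5p, miR-10b-5p and miR-99a-5p. miR-151-3p was there for miR-125a-5p, miR-125b-5p and the mean of the 6. Both miR-378a-3p and miR-328a-3p were there for miR-99b-5p and miR-125b-5p.

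Markers of liver cell types were set beside the group. All 4 hepatocyte miRNAs listed were tested, among them miR-122-5p and miR-192-5p. They summed to between 217588 and 437296 CPM in colesevelam, 191766 and 293889 in vehicle and 246322 and 397838 in lean libraries, so the labelled tissue's markers were abundant. The largest part was miR-192-5p, with a mean of 249660 CPM in colesevelam, 194898 in vehicle and 267210 in lean libraries. miR-122-5p had means of 49019, 38368 and 45208 CPM in the same order. Of the 4, 0 passed the threshold in colesevelam against vehicle or in vehicle against lean libraries, and 1, miR-122-3p, was lower in colesevelam than in lean libraries (log2 −0.85 ± 0.22, adjusted p = 0.00883 in edgeR). Of markers tested, 0 of 3 stromal and 0 of 2 endothelial ones passed the threshold in any comparison (edgeR). Of 2 leukocyte markers tested, miR-150-5p was lower in colesevelam than in vehicle libraries (log2 fold change −1.27), where miR-142-5p was at 0.09. In vehicle against lean libraries miR-142-5p was lower (−1.27), where miR-150-5p was at −0.00025. Both were lower in colesevelam than in lean libraries. Leukocyte markers summed to between 766 and 1544 CPM in colesevelam, 1036 and 1543 in vehicle and 1585 and 3760 in lean libraries. The 1 bile duct marker tested, of 5 listed, was lower in both obese groups than in lean libraries, and the list summed to between 170 and 226 CPM in colesevelam, 74.8 and 279 in vehicle and 401 and 654 in lean libraries. In each list every marker had a count in each group. The part of these shifts in the values of the 6 miRNAs was not tested.

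In colesevelam over vehicle and over lean libraries, members of the 6 fell below 0 only with the authors' size factors, among the scalings tried. In the authors' deposited table the log2 fold changes of the 6 for colesevelam over vehicle ran from −0.17 for miR-125b-5p to 0.71 for miR-99b-5p, with a median of 0.23 against −0.36 over all rows with a value. For vehicle over lean the authors' deposited table gives −2.71 to −2.17, median −2.34, against −2.41 over all rows. For colesevelam over lean the authors' deposited table gives −2.41 to −1.59, median −2.22, against −2.87 over all rows. An adjusted p under 0.05 stands in the authors' deposited table for 0 of the 6 in colesevelam against vehicle, and for 5 of the 6 in each comparison with lean libraries, where miR-10b-5p has none listed. Over all rows with an adjusted p in the authors' deposited table it was under 0.05 for 8 of 127 in colesevelam against vehicle and for 178 of 181 in each comparison with lean libraries.

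The size factors behind the authors' deposited table could be recovered from its mean scaled counts and lay between 0.706 and 1.37, while library totals ran from 32936 to 881452. Put into the same edgeR model they gave −2.07 for miR-10a-5p, −2.13 for miR-99a-5p and −1.59 for miR-99b-5p in colesevelam over lean libraries, and a median over the 112 miRNAs of −2.76. In colesevelam over vehicle libraries they gave 0.47 for miR-10a-5p, 0.58 for miR-99a-5p and 0.70 for miR-99b-5p, −0.02 for miR-10b-5p, −0.15 for miR-125a-5p and −0.17 for miR-125b-5p, and a median over the 112 of −0.36. Under either scaling all 6 lay above the median of all miRNAs in both comparisons of the colesevelam group. Size factors move all miRNAs of a comparison by much the same amount. This position could therefore change little, and its agreement between scalings is no separate evidence. Fold changes elsewhere in the text are relative to the remaining miRNAs in each library.

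**Figure D5:**
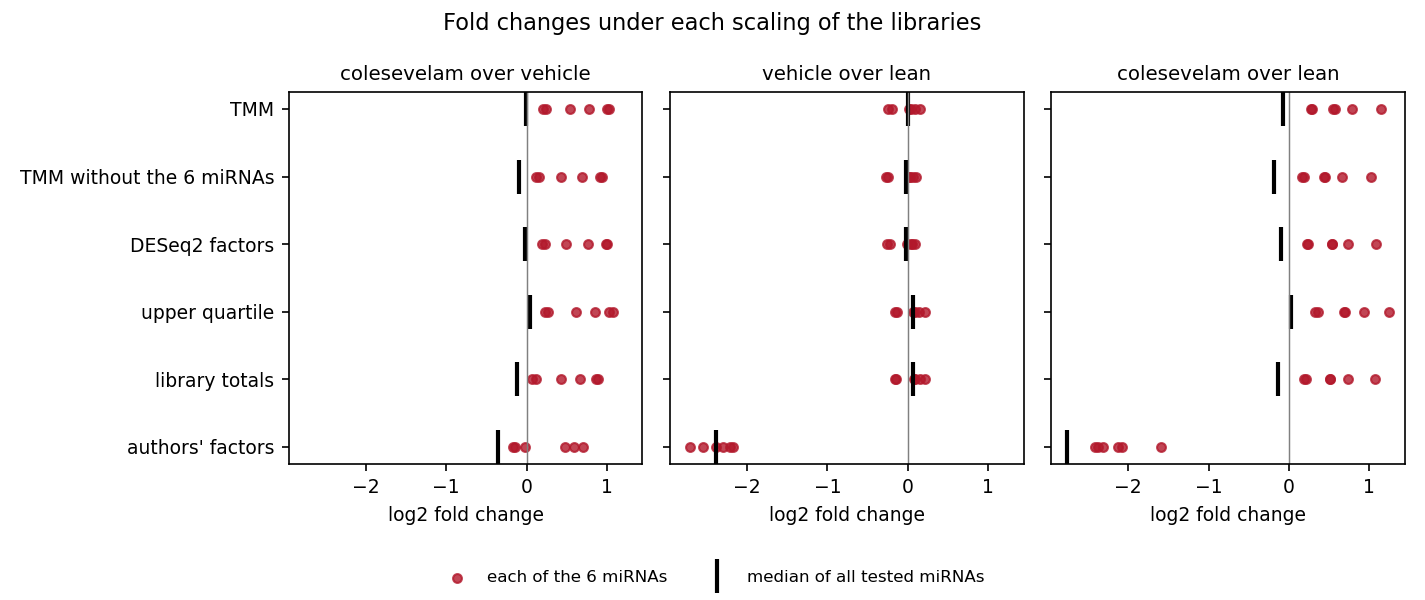
Log2 fold change of each of the 6 miRNAs (red points) and the median of all tested miRNAs (black bar) under 6 scalings of the libraries, in colesevelam over vehicle, vehicle over lean and colesevelam over lean libraries. With the authors' size factors the bar moves to −0.36, −2.38 and −2.76, and the red points move with it.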

How the data were processed

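Small RNA from rat liver was sequenced in 18 libraries. Frozen livers were extracted with a Norgen total RNA kit and made into libraries with the Illumina TruSeq RNA kit, per the labels' protocols, in which no selection of small RNA is described. Bowtie 1.1.2 and DESeq2 1.18.1 were used, per the submitters' processing notes. For adapter trimming, counting tool, genome build and annotation, the method is not given in the sources used here. The values the authors deposited for each library are estimated counts of mature miRNAs without scaling. Of 7218 values, 297 in 42 rows are not whole, none of them in the 6 rows described. The same deposited table gives, per the file headers, the authors' log2 fold changes, raw and adjusted p-values, and the mean scaled count of each row in each comparison, from which size factors were recovered (gap under 1e-06 for 182 of 182, 126 of 127 and 183 of 183 rows).

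Counts were rounded, kept by filterByExpr (minimum count 10, minimum total 15; 112 of 401 rows, 99.5% of counts), scaled by TMM (factors 0.814 to 1.19) and fitted over all 18 libraries (robust quasi-likelihood method, edgeR 4.0.16, R 4.3.3), with Benjamini-Hochberg adjustment at 0.05. The biological coefficient of variation was 36.2%. For correlations log2 CPM used a prior count of 2 and 100000 permutations. A count of 1 was worth 1.31 CPM in the deepest and 28.2 CPM in the shallowest library. Without molecular identifiers a read is not a separate molecule, so counting intervals cover counting error only. Sequences were read from the deposited table and RefSeq (GRCr8). The script of the fit was tested on simulated counts.

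The 6 miRNAs, the partner list and the marker lists were chosen with earlier results of these data known, so the members carry no test between groups. Partners are the other arms of the members' hairpins, the miR-100 arms and the let-7 miRNAs of the clusters. Named alike miRNAs were those of highest within-group r. Alternatives were 16 other settings and 18 fits that each left out 1 library.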

Additional observations from a re-analysis of the deposited data

Results flagged for a closer look

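Of 30 groups of 6 values screened, 1 held a library far from the others by Dixon's criterion, and chance marks about 1 group in 20. In lean library 6 the 6 miRNAs together held 5.93% of all miRNA counts, while the nearest other lean library held 4.16% and the remaining ones between 3.89 and 4.10%. The colesevelam libraries held 5.60 to 7.01%, so this lean library fell in their range. It also had the highest miR-10a-5p level of the lean group, at 55520 CPM. The log2 fold change of miR-10a-5p for vehicle over lean was −0.07 without that library, against −0.20 with it. The cause was not tested.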

How the results depend on the processing

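With the authors' size factors, which stay near 1 while totals differ widely, 2 miRNAs were past the threshold in colesevelam against vehicle, 110 in vehicle against lean and 109 in colesevelam against lean libraries, of which 0, 6 and 6 were among the 6 miRNAs described and 0, 4 and 4 among the partners. The split of those calls into higher and lower was 2 and 0, 1 and 109, and 1 and 108. The median log2 fold change of the 6 became 0.23, −2.34 and −2.22. In colesevelam over lean libraries the sign turned for miR-10a-5p (−2.07), miR-99a-5p (−2.13) and miR-99b-5p (−1.59), and no other setting turned the sign of a called value of the 6.

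The count of miRNAs past the threshold in colesevelam against vehicle libraries, 12, became 6 with upper-quartile factors, 7 without a filter on low counts, 7 with libraries of one label number summed, and 4 with libraries thinned to the shallowest, where 88 rows could be tested. With the title's sample number as a replicate block it was 7, with 2 of the 6 miRNAs, miR-99b-5p being lost. The correlation of deviations was over 0.1 in 6 of 18 pairs of one number (−0.59 to 0.56), and 5 libraries correlated best with their own number. It cannot settle whether the numbers pair the libraries. Of the variance within groups, 41.0% lay on 1 axis whose loadings went with GC content (r = 0.58).

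Among the 6 miRNAs described, the count past the threshold in colesevelam against vehicle libraries was 1 (miR-99b-5p) without the filter, where 7 of 401 rows were past it. It was 2 there in 7 other settings, the block among them. miR-10a-5p was lost with TMM factors computed without the 6 (13 of 112 rows past the threshold) and without miR-192-5p (13 of 115). miR-99b-5p was lost with library totals alone (14 of 112), upper-quartile factors (6 of 112), label numbers summed (7 of 134) and thinning (4 of 88). In colesevelam against lean libraries the count was 1 (miR-99b-5p) instead of 3 with TMM factors computed without the 6 (27 of 112 rows past the threshold), without miR-192-5p (28 of 115), without the filter (29 of 401), with only those 2 groups fitted (19 of 116), or with libraries of one label number summed (17 of 134). There it was 2 with DESeq2 size factors (25 of 112) and with the replicate block (20 of 112), both losing miR-10a-5p, and with thinning (16 of 88), losing miR-99a-5p. Without miR-192-5p their summed share was 8.11% in colesevelam, 5.01% in vehicle and 5.96% in lean libraries. With group means kept, the highest r with the mean of the 6 was 0.88, for miR-191a-5p. Leaving out 1 library gave 7 to 14 miRNAs past the threshold in colesevelam against vehicle libraries (7 without vehicle library 6). In colesevelam against lean libraries 1 to 3 of the 6 were then past it (1 without colesevelam library 4, lean library 1 or lean library 5). There 17 to 32 of all miRNAs were past it. Except where a setting changes which rows or libraries enter, the cause was not tested. Of 1163 values under other settings 1120 were classed as unchanged, 40 as moved and 3 as reversed. For fold changes this class does not follow the calls. That of miR-10a-5p in colesevelam over lean libraries was classed as unchanged in all 18 fits without 1 library. It was past the threshold in 4 of those 18. Obese libraries held 17 to 93 counts of miR-99a-5p and 6 to 122 of miR-10b-5p, which limits what could be detected for them.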
